A study of Mus musculus with 36 samples.

Results

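The genes Flt3, Zbtb46, Cd209a, Clec9a, Xcr1, Fscn1, Ccl17, Ccl22 and Ccr7 mark dendritic cells (DC) or their states, and they were followed through RNA libraries of sorted lung cells. They were taken by gene symbol from a deposited table of FPKM, a read number scaled by transcript length and by library size, in which these are 9 of 27562 genes. All 9 have a value in each of the 36 libraries. The genes were picked by symbol, and they were chosen with earlier results of these data known. The study asked how the origin of alveolar macrophages (AΦ) shapes their response to airborne particles. No library was made from sorted DC, so each value is the level of a DC gene in cells gated as AΦ or as monocytes.

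The hosts were C57BL/6J mice carrying CD45.2, given in the labels as C57BL/6. They were males that had received, as young adults, whole-body irradiation with the chest under lead, then busulfan. Marrow from CD45.1 donors of the B6.SJL-Ptprca Pepcb/BoyJ strain followed. Every group shared this treatment, the filtered air groups included. In these chimeras AΦ of CD45.2 are tissue-resident (TR-AΦ) and AΦ of CD45.1 are bone marrow-derived (BM-AΦ), and CD45.2 monocytes are cells that the host still has. The mice breathed filtered air (FA) or concentrated ambient fine particles (PM2.5) for 4 or 32 weeks. AΦ were sorted as CD64+ cells with high CD11c and low CD11b. Monocytes were sorted as Ly6G- MHC II- cells with low CD64 and high CD11b.

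At 4 weeks the libraries were TR-AΦ and CD45.2 monocytes. At 32 weeks they were BM-AΦ, TR-AΦ and 2 monocyte populations numbered 1 and 2. Number 1 was taken as CD45.1 and number 2 as CD45.2. The labels do not spell out the origin of the monocytes, and this reading follows the key given for AΦ. Each of these 6 populations had 3 libraries for FA and 3 for PM2.5, which makes 12 groups of 3 biological replicates, numbered 0, 1 and 2. The paper states that 3 mice were taken from each exposure group at each time. Populations of one such group may therefore come from the same mice, while the main tests treat their libraries as independent.

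Conventional DC arise from marrow precursors that depend on the receptor tyrosine kinase Flt3 and its ligand, and the transcription factor Zbtb46 separates them from monocytes and macrophages. Type 1 conventional DC carry the C-type lectin Clec9a, which binds actin exposed by dead cells, and Xcr1, the receptor for the chemokine Xcl1. The lectin Cd209a marks part of type 2 conventional DC and also monocyte-derived cells with DC features. When a DC matures it makes the actin-bundling protein fascin (Fscn1), secretes Ccl17 and Ccl22, both ligands of Ccr4 on T cells, and raises Ccr7, which guides it along Ccl19 and Ccl21 into lymph vessels and to the draining lymph node.

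Promoter sequence was at hand in the RefSeq table (GRCm38.p6, the sequence of mm10) for 8 of the 9 genes, the exception being Ccr7. Those of Flt3, Cd209a and Ccl17 are printed, 5′ to 3′ on the strand of the gene, each with the 250 bases just before the annotated start. They are shown because the levels of the genes differ in kind. Flt3 was present in each monocyte library, and Cd209a was the highest in monocytes. Ccl17 reached high levels in some libraries of both cell types. Capitals mark a match to the PU.1 core letters GAGGAA.
Flt3, minus strand of chr5:147400490-147400739: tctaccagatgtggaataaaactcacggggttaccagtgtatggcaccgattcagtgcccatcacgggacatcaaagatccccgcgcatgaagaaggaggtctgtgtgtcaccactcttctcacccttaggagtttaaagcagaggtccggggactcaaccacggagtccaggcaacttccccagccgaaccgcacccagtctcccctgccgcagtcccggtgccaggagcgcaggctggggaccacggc
Cd209a, minus strand of chr8:3748985-3749234: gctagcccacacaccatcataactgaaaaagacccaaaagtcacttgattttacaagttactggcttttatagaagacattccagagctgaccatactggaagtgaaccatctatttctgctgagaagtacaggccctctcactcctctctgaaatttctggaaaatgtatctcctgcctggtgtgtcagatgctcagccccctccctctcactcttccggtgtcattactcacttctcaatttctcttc
Ccl17, plus strand of chr8:94810203-94810452: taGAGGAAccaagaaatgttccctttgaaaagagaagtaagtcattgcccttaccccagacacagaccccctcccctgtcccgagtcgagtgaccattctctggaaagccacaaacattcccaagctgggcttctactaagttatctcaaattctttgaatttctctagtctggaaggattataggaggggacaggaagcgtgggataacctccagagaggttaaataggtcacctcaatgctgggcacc

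Both strands of the windows of all 8 genes were searched for GAGGAA, for the AP-1 letters TGANTCA, for the ETS-IRF composite in either order of its parts, and for the NF-kappa B consensus. TGANTCA reads the same on both strands, and the ETS letters of a composite can overlap the end of GAGGAA. The Ccl17 match lies 248 to 243 bases before the start. Zbtb46 had TGANTCA 61 to 55 bases before its start, in a window that lies inside the gene, and Clec9a had an ETS-IRF composite 70 to 61 bases before its start. The other 5 windows held no match. Of 32851 promoter windows of this length, 23.3% held GAGGAA, 6.75% TGANTCA, 2.3% each composite and 7.25% the NF-kappa B consensus, so each match is a letter match only.

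In the file's mm10 coordinates Flt3 spans chr5:147330741-147401917, a locus the file shares with the antisense gene Gm26597, and Zbtb46 spans chr2:181387762-181459426. Cd209a is at chr8:3743397-3748984, Xcr1 at chr9:123852315-123862029, Fscn1 at chr5:142960343-142973185 and Ccr7 at chr11:99144196-99155077. The chemokine genes are near neighbours, with Ccl22 at chr8:94745590-94751699 and Ccl17 at chr8:94810453-94812035, and Cx3cl1 lies between them, 20309 bases past Ccl22 and 28029 bases before Ccl17. Clec9a is at chr6:129408862-129424763, next to Clec1b, a lectin receptor gene at chr6:129397297-129405333 on the same strand. In the GENCODE annotation a longer Clec1b transcript runs past the start of Clec9a, and the whole Clec9a window searched above lies in a Clec1b exon. Reads from that transcript could have been given to either gene, so low Clec9a values are uncertain. The strand setting of the counting was not given in the sources used here. Gm26597 was listed at 0 in all 18 AΦ libraries and reached at most 0.834 FPKM in monocytes.

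The libraries carried markers of the cell types they were sorted as. Among genes of the sorted surface molecules, Itgax (CD11c) averaged 67.0 FPKM in AΦ and 12.4 in monocytes. Itgam (CD11b) averaged 3.08 and 92.9. Fcgr1 (CD64) went against its gate in mean RNA, at 18.1 and 26.4, with overlapping ranges. All 10 monocyte markers tested (such as Ly6c2, Ccr2 and Csf1r) were higher in monocytes at both times and origins, and 10 or 11 of 11 AΦ markers (such as Siglecf, Marco and Pparg) were lower. The 7 MHC class II genes were far from silent in the MHC II- gate, with summed levels of 679 to 4780 FPKM in 4-week monocytes, 4639 to 10590 in CD45.1 monocytes and 8066 to 10923 in CD45.2 monocytes at 32 weeks, beside 1919 to 7944 in AΦ. FPKM holds no read number, but the steps between the lowest values put the relative depth of the libraries at 0.605 to 1.87 times that of the median library. A gene listed at 0 had no read assigned to it at that depth, which is not the same as an absent transcript.

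The 4-week libraries numbered 2, 1 per exposure and cell type, stood apart from the other 4-week libraries in both cell types. In monocytes numbered 2, neutrophil markers (6 genes, among them S100a8 and S100a9) summed to 394 FPKM for FA and 1140 for PM2.5, against 44.0 to 79.3 in the other 4. The same 2 libraries had the lowest MHC class II sums of the 4-week monocytes, 1145 and 679 against 2602 to 4780, and interstitial macrophage markers (6 genes, among them C1qa and Lyve1) at 2.85 and 3.53 against 158 to 406. In TR-AΦ numbered 2, neutrophil markers summed to 28.5 and 59.2 FPKM against 4.87 to 8.57, and interstitial macrophage markers to 190 and 569 against 36.4 to 104. Comparisons that use 4-week libraries were therefore repeated without these 4 for the 9 genes and for the counts over all genes, a choice made after their values were seen. The tests of other named genes were not repeated in this way. The part of other cells in the results was not tested.

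The first comparison was between the cell types. Monocyte libraries held more Flt3 and Cd209a than AΦ libraries of the same time and origin in each of 3 comparisons, and the differences of Clec9a were below 0 in each. Ccl22 ran from 3.76 to 36.8 FPKM in AΦ and from 0 to 77.3 in monocytes. Ccl17 ran from 0 to 62.6 and from 0 to 73.1, and had a median of 0.186 in 4-week TR-AΦ. Tests were run with limma on log2(FPKM + 1) over every gene whose mean reached 1 FPKM, with Benjamini-Hochberg adjustment at 0.05, and fold changes on that scale understate the change of low genes. Of 13307 genes tested, 48.2% passed at 4 weeks (25.5% higher and 22.6% lower in monocytes), 50.9% in CD45.1 cells (23.8% and 27.1%) and 47.3% in CD45.2 cells at 32 weeks (23.7% and 23.6%), so a call is common here. Xcr1 was below the filter, and of the 8 genes tested 4 were higher and 1 lower at 4 weeks, 2 higher and 1 lower in CD45.1 cells, and 5 higher in CD45.2 cells. The median fold change of all 9 was 1.34, 0.53 and 1.61 (log2), against 0.02, −0.03 and 0.00 over all genes tested. A gene that is high in one cell type can pass the filter through it, so the counts describe the genes that passed. Markers of other cells moved with the cell type too. Interstitial macrophage markers were higher in monocytes for 0, 2 and 6 of 6 in the 3 comparisons. Summed neutrophil markers (6 genes) were 25.4 to 1140 FPKM in monocytes and 4.87 to 59.2 in AΦ, endothelial markers (3 genes) 6.64 to 47.5 and 0.618 to 3.99, and epithelial markers (4 genes) 3.29 to 37.3 and 44.0 to 178. B cell markers (4 genes) summed to 1.45 to 5.87 FPKM in monocytes and 0 to 1.02 in AΦ at 32 weeks, and overlapped at 4 weeks. Their part in the differences was not tested. In such bulk libraries, more cells that express a gene cannot be told apart from more RNA of it per cell.

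**Figure D1:**
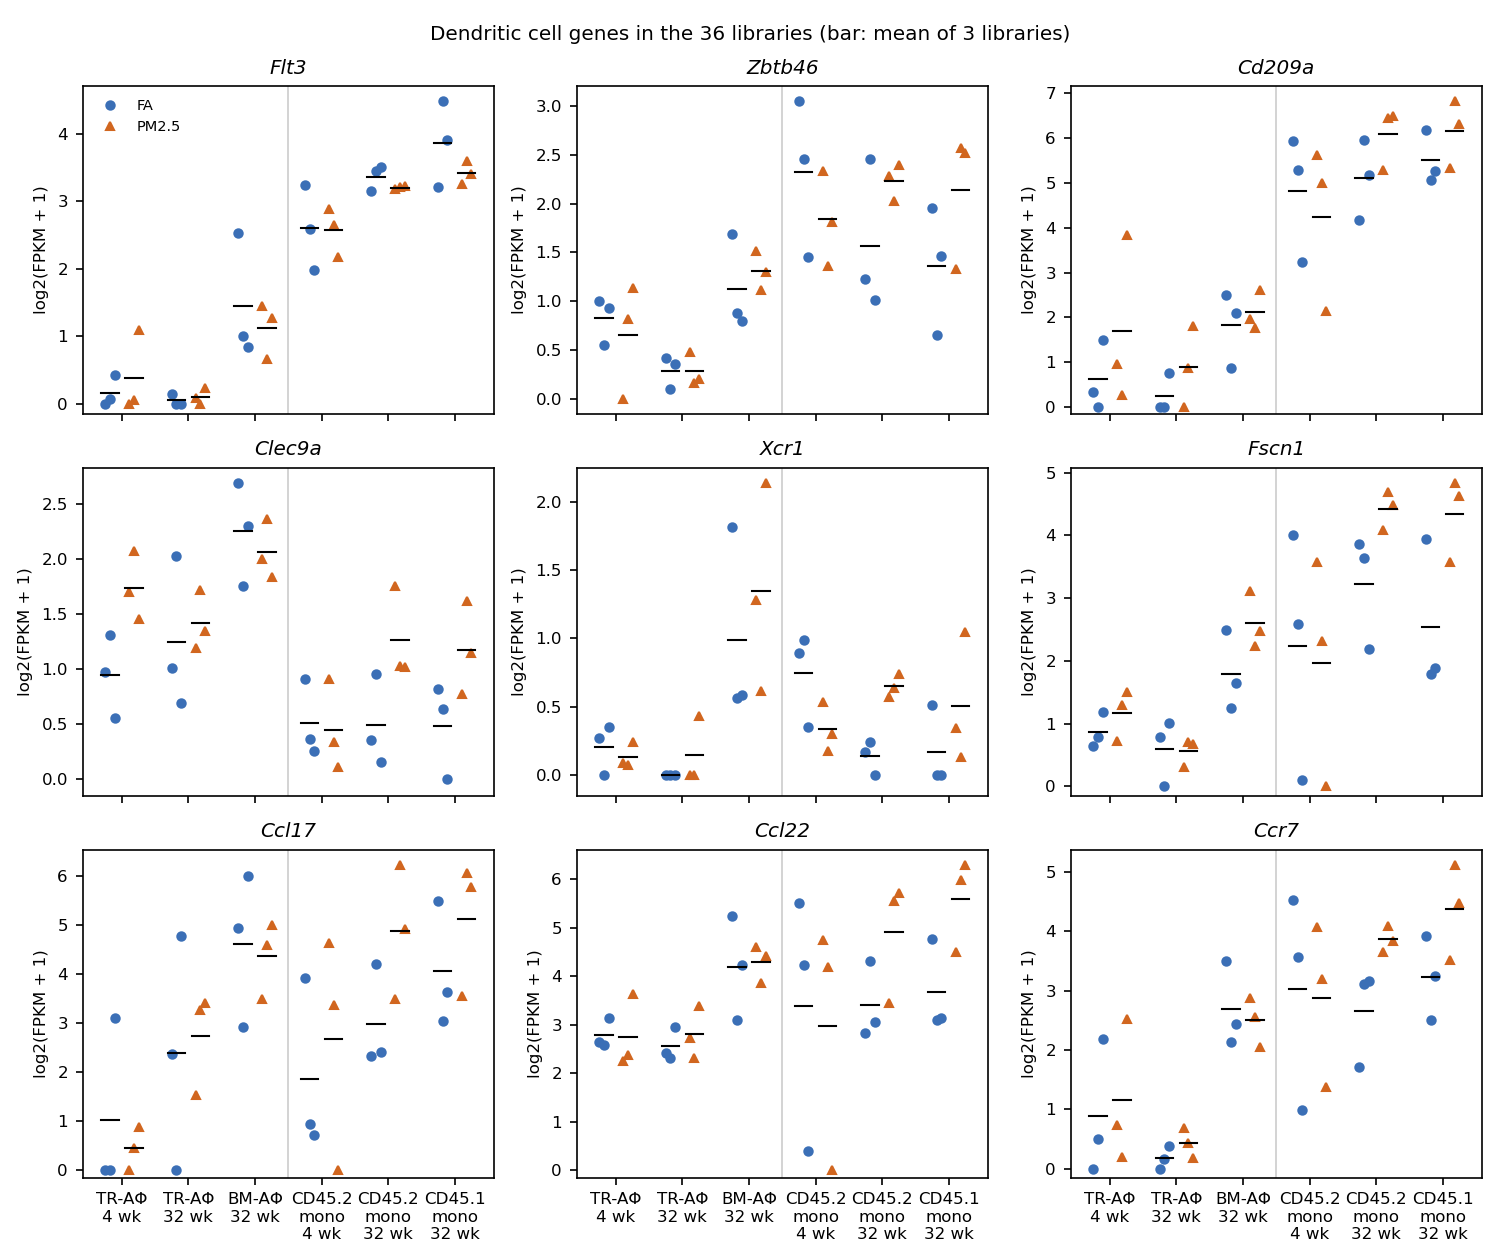
Level of each gene as log2(FPKM + 1) on the vertical axis in the 36 libraries, by population and exposure along the horizontal axis, with 1 point per library and a bar at the mean of the 3 libraries of a group. Cd209a and Flt3 are high in the monocyte groups on the right of each panel, Clec9a is highest in BM-AΦ, and Xcr1 stays low throughout.

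Flt3 was present in every monocyte library. In 4-week monocytes it stood at 8.44, 5.0 and 2.96 FPKM for FA and at 6.42, 5.30 and 3.50 for PM2.5. At 32 weeks CD45.1 monocytes ran from 8.30 to 21.4 with a median of 10.4, and CD45.2 monocytes from 7.89 to 10.3 with a median of 8.29. AΦ libraries lay below all of these in the matched comparison, and 5 of 18 were listed at 0. TR-AΦ reached at most 1.12 FPKM at 4 weeks and 0.169 at 32 weeks, and BM-AΦ ran from 0.584 to 4.76. Monocytes exceeded AΦ by 2.32 ± 0.26 (log2, SE) at 4 weeks (limma, adjusted p = 1.88e-08), by 2.36 ± 0.26 in CD45.1 cells (limma, adjusted p = 1.6e-08) and by 3.21 ± 0.26 in CD45.2 cells (limma, adjusted p = 4.95e-11). No AΦ library overlapped a monocyte library in any of the 3. Of all genes tested, 16.1%, 14.7% and 14.0% had no overlap with monocytes higher in the 3 comparisons, and in CD45.1 cells 30.8% had none in either direction.

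Flt3l, the ligand, was also higher in monocytes, at 1.41 to 6.40 FPKM over 18 libraries against 0 to 1.86 in AΦ. Its fold change was 1.22, 1.42 and 1.62 (log2) in the 3 comparisons, past the threshold each time (limma, adjusted p = 8.39e-05, 1.12e-05 and 1.59e-06).

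Zbtb46 was low in all populations. The 4-week monocytes ran from 1.57 to 7.28 FPKM with a median of 3.28, CD45.1 monocytes from 0.570 to 4.95 with a median of 2.32, and CD45.2 monocytes from 1.02 to 4.47 with a median of 3.47. TR-AΦ stayed at or below 1.20 FPKM at 4 weeks and 0.394 at 32 weeks, so neither overlapped the monocytes of its time. BM-AΦ at 0.741 to 2.22 FPKM overlapped CD45.1 monocytes. The difference was 1.34 ± 0.29 (log2, SE) at 4 weeks (limma, adjusted p = 0.000409) and 1.61 ± 0.29 in CD45.2 cells (limma, adjusted p = 4.73e-05). In CD45.1 cells it was 0.53 ± 0.29 and did not pass the threshold (limma, adjusted p = 0.136).

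Cd209a had the highest level of the 9 genes in monocytes. At 32 weeks CD45.1 monocytes held 71.2, 32.6 and 37.6 FPKM for FA and 39.2, 112 and 78.2 for PM2.5. CD45.2 monocytes held 17.1, 61.4 and 35.3 for FA and 38.3, 87.1 and 89.8 for PM2.5. The AΦ of the same time were far below, at 0.838 to 5.14 FPKM in BM-AΦ and 0 to 2.52 in TR-AΦ, with no overlap in either origin. At 4 weeks the monocytes held 60.0, 38.1 and 8.36 FPKM for FA and 48.2, 30.9 and 3.41 for PM2.5, and 1 TR-AΦ library, number 2 of PM2.5, reached 13.2 where the other 5 reached at most 1.83. The difference was 3.38 ± 0.59, 3.86 ± 0.59 and 5.02 ± 0.59 (log2, SE) in 4-week, CD45.1 and CD45.2 cells (limma, adjusted p = 2.62e-05, 4.21e-06 and 6.11e-08).

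Of the other members of the Cd209 family, 2 of 6 passed the filter. Cd209b was lower in monocytes, with a difference of −0.71 (log2) at 4 weeks and −1.02 in CD45.2 cells (limma, adjusted p = 0.0228 and 0.00152), opposite to Cd209a. Cd209f was 2.5 (log2) higher in CD45.2 monocytes than in TR-AΦ at 32 weeks (limma, adjusted p = 8.08e-08), and its differences of −0.46 at 4 weeks and 0.16 in CD45.1 cells did not pass.

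Clec9a and Xcr1, the pair that marks type 1 conventional DC, were the lowest of the 9 genes in monocytes. Clec9a stood at 0.470 to 3.21 FPKM in 4-week TR-AΦ, 2.39 to 5.48 in BM-AΦ and 0.621 to 3.08 in TR-AΦ at 32 weeks, against 0.0763 to 0.880, 0 to 2.07 and 0.113 to 2.37 in the matching monocytes. It was lower in monocytes, with a difference of −0.86 ± 0.24 (log2, SE) at 4 weeks (limma, adjusted p = 0.00448) and of −1.33 ± 0.24 in CD45.1 cells (limma, adjusted p = 5.09e-05), where the libraries did not overlap. In CD45.2 cells the difference of −0.45 ± 0.24 did not pass (limma, adjusted p = 0.131).

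Clec1b, whose longer transcript overlaps the start of Clec9a, went the same way, at 6.68 to 19.4 FPKM in the 18 AΦ libraries and 0 to 2.19 in the 18 monocyte libraries, the 6 of 4 weeks all listed at 0. Its difference was −3.63 in CD45.1 and −3.20 in CD45.2 cells (log2; limma, adjusted p = 3.28e-16 and 7.7e-15). Among AΦ the order differed, since Clec1b averaged 12 FPKM in 4-week TR-AΦ, 13.5 in BM-AΦ and 16.6 in 32-week TR-AΦ, while Clec9a averaged 1.68, 3.59 and 1.64. How far Clec1b reads enter the Clec9a values was not tested.

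Xcr1 was at or below 1.06 FPKM in all 18 monocyte libraries, and listed at 0 in 3 of them and in 6 of 18 AΦ libraries. BM-AΦ held the most, with 2.51, 0.476 and 0.498 FPKM for FA and 1.42, 0.535 and 3.4 for PM2.5. Of these, 3 lay above all CD45.1 monocytes, whose range was 0 to 1.06, and the other 3 overlapped them (difference −0.83, log2, exact two-sided permutation test, p = 0.026). At 4 weeks the difference was 0.37 with monocytes higher (exact two-sided permutation test, p = 0.026), and in CD45.2 cells 0.32 (exact two-sided permutation test, p = 0.0736), at levels under 1 FPKM in both cell types. Its chemokine ligand gene Xcl1 was listed at 0 in 31 of the 36 libraries.

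Among the genes of mature DC, Fscn1 and Ccr7 were higher in CD45.2 monocytes than in TR-AΦ at 32 weeks with no overlap between the 6 and 6 libraries. Fscn1 held 13.6, 11.4 and 3.54 FPKM in CD45.2 monocytes of FA and 16.0, 24.8 and 21.5 of PM2.5, against at most 1.0 in TR-AΦ. Ccr7 held 2.28, 7.68 and 7.93 FPKM for FA and 11.6, 16.1 and 13.3 for PM2.5, against at most 0.601. The differences were 3.25 ± 0.54 and 2.96 ± 0.52 (log2, SE; limma, adjusted p = 1.28e-05 and 3.25e-05).

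In CD45.1 cells both genes overlapped between the cell types. Fscn1 ran from 2.46 to 27.5 FPKM in CD45.1 monocytes and from 1.38 to 7.66 in BM-AΦ, a difference of 1.24 ± 0.54 (limma, adjusted p = 0.0557). Ccr7 ran from 4.68 to 33.6 FPKM and from 3.16 to 10.2, a difference of 1.20 ± 0.52 (limma, adjusted p = 0.0568). At 4 weeks Ccr7 was 1.93 ± 0.52 higher in monocytes (limma, adjusted p = 0.00317), and the 1.08 ± 0.54 of Fscn1 did not pass (limma, adjusted p = 0.101). In a fit of the compared libraries alone, both genes passed for CD45.1 cells (limma, adjusted p = 0.039 and 0.0227), while Ccr7 at 4 weeks did not (limma, adjusted p = 0.0672).

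Ccl17 and Ccl22 did not pass in any of the 3 comparisons. In CD45.1 cells at 32 weeks Ccl17 ran from 7.22 to 65.0 FPKM in monocytes and from 6.58 to 62.6 in BM-AΦ, a difference of 0.09 ± 0.85 (log2, SE; limma, adjusted p = 0.957). Ccl22 ran from 7.53 to 77.3 in monocytes and from 7.51 to 36.8 in BM-AΦ, a difference of 0.39 ± 0.72 (limma, adjusted p = 0.688). For Ccl17 the libraries of the cell types thus covered nearly the same span.

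In CD45.2 cells the differences were 1.37 ± 0.85 for Ccl17 and 1.47 ± 0.72 for Ccl22 (limma, adjusted p = 0.195 and 0.0962), and at 4 weeks 1.52 ± 0.85 and 0.41 ± 0.72 (limma, adjusted p = 0.147 and 0.676). Cx3cl1, the chemokine gene between them, went the other way, at 9.28 to 21.5 FPKM in AΦ and 0 to 4.57 in monocytes. Its fold change was −3.42, −2.5 and −2.23 (log2; limma, adjusted p = 1.06e-12, 5.47e-10 and 4.43e-09). Of the partners of these chemokines and of Ccr7, Ccr4 was listed at 0 in 30 of 36 libraries and Ccl21a in 22, and Ccl19 was not analysed here.

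At 4 weeks the results of Fscn1, Ccl17 and Ccl22 turned on the libraries numbered 2, while the 5 genes called in the main fit stayed called without them. Monocytes numbered 2 held 0.0731 FPKM of Fscn1 for FA and 0 for PM2.5, where the other 4 held 15.1, 5.0, 10.9 and 4.01. They held 0.325 and 0 of Ccl22, where the others held 44.5, 17.8, 25.9 and 17.4. In TR-AΦ the libraries numbered 2 were instead the highest for Ccr7, at 3.53 and 4.76 FPKM against 0 to 0.665. Without the 4 libraries all 8 genes tested were called, among them Fscn1 at 2.26, Ccl17 at 3.10 and Ccl22 at 2.21 (log2; limma, adjusted p = 0.000419, 0.00979 and 0.00189), with 5574 of 13307 genes called in that fit.

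**Figure D2:**
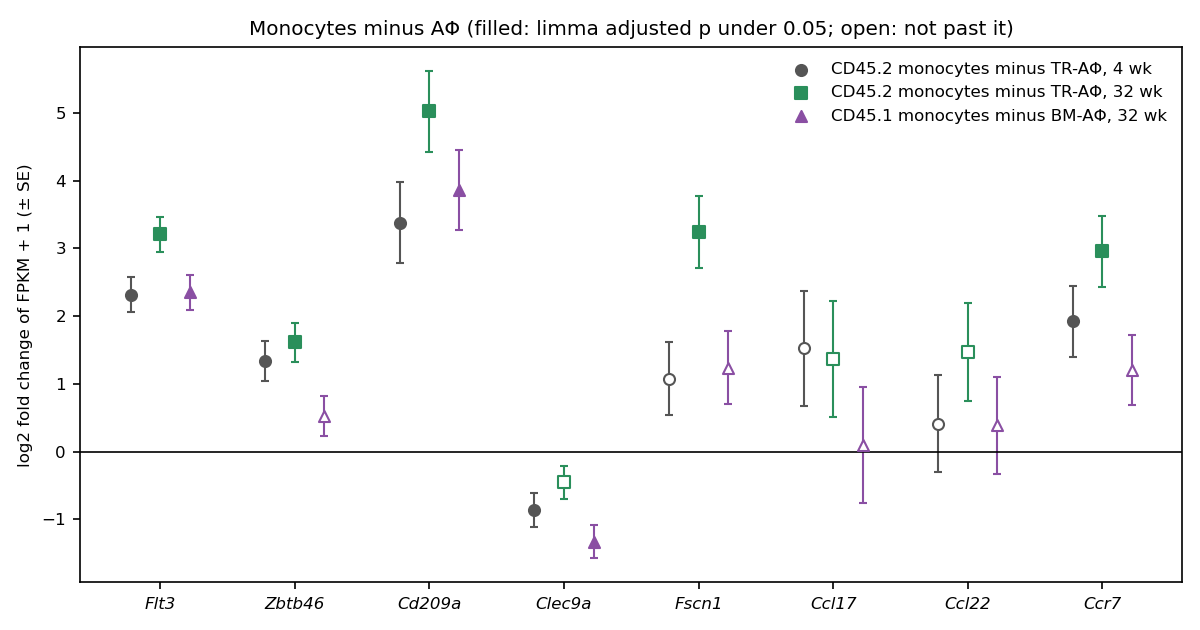
Log2 fold change of FPKM + 1, monocytes minus AΦ, with its SE, for the 8 genes tested, in 4-week cells and in CD45.1 and CD45.2 cells at 32 weeks. Filled points passed the limma test at an adjusted p of 0.05. Cd209a has the largest values, from 3.38 to 5.02, and Clec9a alone lies below 0 in all 3 comparisons.

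Other DC genes moved with the cell type too. Of 6 further genes of type 2 conventional DC tested, 4, 5 and 4 were higher in monocytes in 4-week, CD45.1 and CD45.2 cells and 1 was lower in each. Clec10a, a lectin of DC and macrophages, was 1.65, 2.95 and 3.56 (log2) higher in the 3 comparisons, and its relative Mgl2 2.80 and 4.82 higher in CD45.1 and CD45.2 cells, while the inhibitory receptor Sirpa was the lower one at −0.83, −1.24 and −1.15. All 4 tested genes of DC and their precursors were higher at 4 weeks and 3 of 4 at 32 weeks in each origin, led by the transcription factor Bcl11a at 3.14, 2.76 and 2.99.

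Of 7 tested genes of mature DC, 5, 6 and 5 were higher and Socs2, a feedback inhibitor of cytokine signalling, was the lower one at −3.42, −2.99 and −2.87. The costimulatory genes Cd40 (3.09, 2.11 and 2.84) and Cd83 (2.21, 1.94 and 3.16) were among the higher ones. Of 6 further genes of type 1 conventional DC, 0, 1 and 3 were higher and 2, 2 and 1 lower. The lower ones were Naaa in all 3 comparisons (−0.93, −1.30 and −1.27) and Tlr3 at 4 weeks and in CD45.1 cells (−1.26 and −1.16). Of 3 plasmacytoid DC genes tested, 2, 2 and 3 were higher and none lower, with Tcf4 at 1.31, 1.49 and 2.53. These genes passed with limma adjusted p-values from 2.3e-12 for Bcl11a at 4 weeks to 0.0432 for Cadm1, of type 1 conventional DC, in CD45.1 cells.

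The next comparison, of BM-AΦ with TR-AΦ at 32 weeks, asked whether AΦ that had come from the marrow differ from resident ones in chimeric lungs. All 9 genes had a higher mean in BM-AΦ, and for 5 of them, Flt3, Zbtb46, Xcr1, Fscn1 and Ccr7, each BM-AΦ library lay above each TR-AΦ library (exact two-sided permutation test, p = 0.00216 each, the smallest that 6 against 6 allows). Of all 12665 genes tested, 0.829% had such a gap with BM-AΦ higher, and 55.3% had a fold change above 0. Flt3, Zbtb46 and Xcr1 were below the filter in AΦ and are not among those genes, so the shares cover a different set. Of the 6 genes tested, 2 were called, Fscn1 and Ccr7, both higher in BM-AΦ, where 0.134% of all genes were called higher and 0.316% in either direction. The median fold change of all 9 was 1.40 (log2), against 0.02 over all genes tested. Fscn1 and Ccr7 passed the filter through BM-AΦ, since their means were 4.01 and 5.40 FPKM there, 0.534 and 0.251 in 32-week TR-AΦ and 1.08 and 1.59 in 4-week TR-AΦ, so the count of 2 carries no weight of its own. With no filter both passed as well (limma, adjusted p = 0.0171 for Fscn1 and 0.0432 for Ccr7).

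Ccr7 had the widest gap. BM-AΦ held 10.2, 3.39 and 4.40 FPKM for FA and 6.34, 4.90 and 3.16 for PM2.5, and TR-AΦ held 0, 0.114 and 0.308 for FA and 0.601, 0.356 and 0.128 for PM2.5. The difference was 2.29 ± 0.42 (log2, SE; limma, adjusted p = 0.0369). All BM-AΦ libraries lay above 3 FPKM and all TR-AΦ libraries below 1 FPKM, but Ccr7 remained called in 1 of 12 fits that left out 1 library, with adjusted p from 0.0364 to 0.125 (limma).

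Fscn1 held 4.62, 1.38 and 2.15 FPKM in BM-AΦ of FA and 7.66, 3.69 and 4.57 of PM2.5, against 0.729, 0 and 1.0 and 0.240, 0.629 and 0.603 in TR-AΦ. The difference was 1.62 ± 0.26 (limma, adjusted p = 0.015) and Fscn1 remained called in each of the 12 fits without 1 library (limma, adjusted p from 0.00901 to 0.0422). With a block built from the replicate number neither passed (limma, adjusted p = 0.0864 for Fscn1 and 0.0562 for Ccr7). The differences were unchanged in that fit and their SEs were smaller, at 0.22 for Fscn1 and 0.23 for Ccr7. With a pseudocount of 0.1 Ccr7 did not pass (limma, adjusted p = 0.0502).

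Flt3, Zbtb46 and Xcr1 were below the filter in AΦ. For Flt3 BM-AΦ held 4.76, 0.993 and 0.786 FPKM for FA and 1.74, 0.584 and 1.41 for PM2.5, against at most 0.169 in TR-AΦ, where 3 of 6 libraries were listed at 0. For Zbtb46 the values were 2.22, 0.844 and 0.741 and then 1.87, 1.17 and 1.46, against at most 0.394. Xcr1, given above for BM-AΦ, was listed at 0 in 5 of 6 TR-AΦ libraries and at 0.350 in the other. In the fit with no filter the 3 differences were 1.21, 0.93 and 1.09 (log2; limma, adjusted p = 0.112, 0.0833 and 0.111).

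The chemokines and lectins overlapped between the origins. Ccl22 held 36.8, 7.51 and 17.9 FPKM in BM-AΦ of FA and 23.3, 13.5 and 20.5 of PM2.5, against 4.36, 3.95 and 6.76 and 5.63, 3.99 and 9.45 in TR-AΦ, so that 5 of 6 BM-AΦ libraries lay above all TR-AΦ libraries. Its difference was 1.56 ± 0.34 (limma, adjusted p = 0.0779). The differences of Ccl17, Cd209a and Clec9a were 1.93 ± 0.79, 1.40 ± 0.55 and 0.83 ± 0.24 (limma, adjusted p = 0.558, 0.519 and 0.252).

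**Figure D3:**
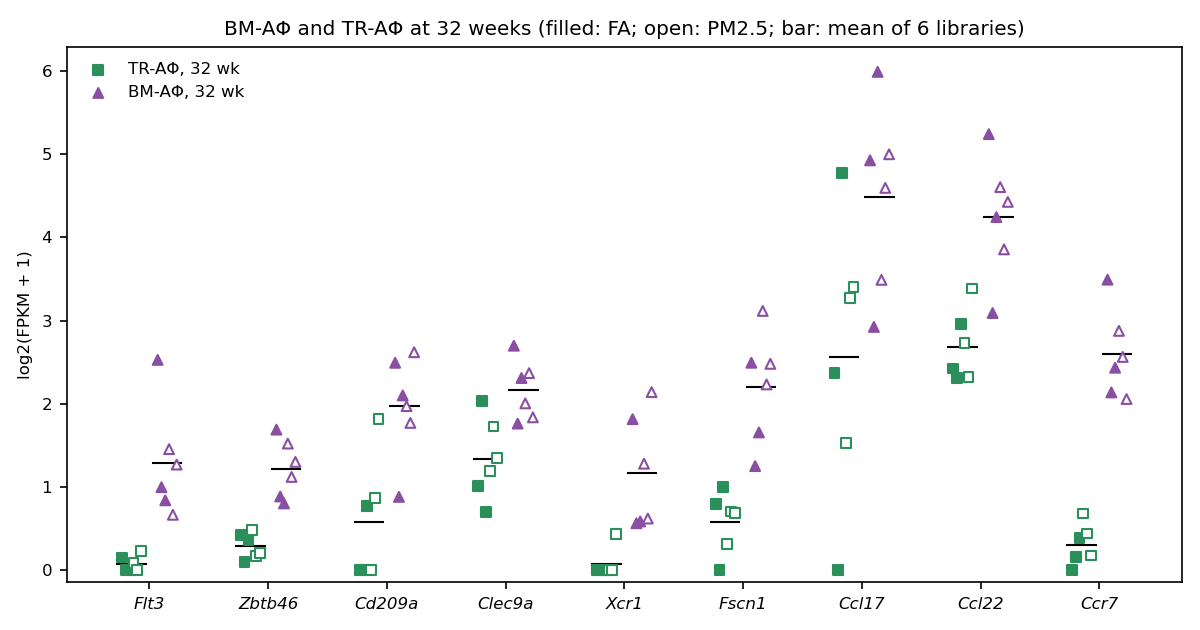
Level of each gene as log2(FPKM + 1) on the vertical axis in the 6 BM-AΦ and 6 TR-AΦ libraries at 32 weeks, with filled points for FA, open points for PM2.5 and a bar at the mean of the 6. For Flt3, Zbtb46, Xcr1, Fscn1 and Ccr7 the sets of points do not overlap.

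Other DC lists were read beside these. None of the genes tested of type 1 conventional DC (6), type 2 conventional DC (4), DC precursors (1), mature DC (5), plasmacytoid DC (2) or MHC class II (7) was called between BM-AΦ and TR-AΦ by limma, where 0.316% of all genes were called and 944 of 12665 had an unadjusted p under 0.05, with median fold changes of 0.32, 0.24, 0.04, 0.14, 0.38 and 0.49 (log2). The summed MHC class II level was 4858 to 7944 FPKM in BM-AΦ and 3762 to 5410 in TR-AΦ, the summed interstitial macrophage markers 39.2 to 314 and 18.4 to 71.8, and the summed monocyte markers 264 to 404 and 121 to 388, each with overlap. Summed AΦ markers were 3381 to 4771 in BM-AΦ and 3807 to 5489 in TR-AΦ. The part of other cells or of unequal numbers of DC in the gates in these differences was not tested.

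Monocytes of the 2 origins were then compared at 32 weeks. No gene of the 7 tested was called between CD45.1 and CD45.2 monocytes by limma, with 86 of 12856 genes (0.669%) called in all and 1233 at an unadjusted p under 0.05, none of them a member. Flt3 differed by 0.36 ± 0.23 (log2, SE), Ccr7 by 0.53 ± 0.58, Ccl22 by 0.48 ± 0.92, Ccl17 by 0.66 ± 0.85, Cd209a by 0.23 ± 0.60, Zbtb46 by −0.15 ± 0.35 and Fscn1 by −0.38 ± 0.69 (limma, adjusted p from 0.700 to 0.958). None of the 9 had libraries without overlap, where 1.18% of all genes did.

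Related genes did differ between these monocytes. Cd209f was lower in CD45.1 monocytes, with a difference of −2.5 (log2), as was Siglech, a lectin of plasmacytoid DC, with −2.47 (limma, adjusted p = 6.79e-05 and 0.00042). Interstitial macrophage markers moved with them, with 3 of 6 called lower and summed levels of 308 to 1022 FPKM in CD45.1 and 858 to 3290 in CD45.2 monocytes, and their part in these calls was not tested.

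Whether the origin difference itself differed between AΦ and monocytes was tested as an interaction. No gene of the 8 tested passed (limma, adjusted p from 0.285 for Fscn1 to 0.832 for Ccl17), with 144 of 13307 genes (1.08%) called and 1370 at an unadjusted p under 0.05, among them Flt3, Zbtb46, Clec9a, Fscn1 and Ccr7. The estimates were the CD45.1 minus CD45.2 difference in monocytes minus the same difference in AΦ. All were below 0, from −0.85 for Flt3 to −2.01 for Fscn1 (log2), and none of them passed.

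Time was compared within CD45.2 cells, 32 against 4 weeks. The 32-week mice were also older when sampled, so time in the chambers and age cannot be told apart. In TR-AΦ no gene of the 6 tested was called by limma (adjusted p from 0.191 for Ccl17 to 0.992 for Clec9a), with 748 of 12665 genes (5.91%) called and 2822 at an unadjusted p under 0.05. Ccl17 was listed at 0 in 3 of 6 libraries at 4 weeks, with 7.53 FPKM as the highest, and ran from 0 to 26.3 at 32 weeks, a difference of 1.82 ± 0.79 (log2, SE). The other 8 genes had lower mean log2 values at 32 weeks, where 53.7% of all genes tested had higher ones.

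In CD45.2 monocytes no gene of the 7 tested was called between the times by limma either, with 1914 of 12856 genes (14.9%) called and 3517 at an unadjusted p under 0.05. Flt3 came nearest at 0.70 ± 0.23 (log2, SE; limma, adjusted p = 0.0511), and its difference was 0.44 ± 0.21 without the libraries numbered 2 (limma, adjusted p = 0.251). It stood at 2.96 to 8.44 FPKM at 4 weeks and 7.89 to 10.3 at 32 weeks, an overlap of 1 library at 4 weeks. Fscn1 differed by 1.73 ± 0.69 and Ccl17 by 1.66 ± 0.85 (limma, adjusted p = 0.114 and 0.227), and 7 of the 9, all but Zbtb46 and Xcr1, had higher mean log2 values at 32 weeks, where 44.2% of all genes did.

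Genes around them did change. Of 7 MHC class II genes 6 were higher at 32 weeks, from H2-DMa at 1.27 to H2-Eb1 at 2.97 (log2; limma, adjusted p = 0.00715 and 0.0231), and Cd209f was higher by 2.5 and Cd209b by 1.19 (limma, adjusted p = 4.87e-05 and 0.00875). Siglech was higher by 2.64, Mgl2 by 2.62 and Cadm1 by 2.21 (limma, adjusted p = 8.24e-05, 0.0386 and 0.00199). The cytokine gene Ltb and Cd40 were lower, with differences of −1.86 and −0.95 (limma, adjusted p = 0.0069 and 0.02). All 6 interstitial macrophage markers were higher too, with summed levels of 2.85 to 406 FPKM at 4 weeks and 858 to 3290 at 32 weeks, and 2 of 5 neutrophil markers were lower, and the part of either in these changes was not tested. Without the libraries numbered 2 at 4 weeks the count over all genes was 1177 in place of 1914. The calls of single genes in this paragraph come from the main fit and were not repeated without those libraries. Of the 4-week monocytes, those libraries had the lowest summed MHC class II and interstitial macrophage levels.

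Without the 4-week libraries numbered 2 no member was called for time in either cell type, for exposure at 4 weeks or for the interactions with time. The interaction of cell type and time called no gene of the 8 by limma (adjusted p from 0.0795 for Fscn1 to 0.972 for Ccl17), with 1049 of 13307 genes (7.88%) called and 2702 at an unadjusted p under 0.05, among them Flt3 and Fscn1.

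The last question was what particles did to these genes. No gene of the 9 was called between PM2.5 and FA in any of the 6 populations by limma, and few genes of any kind were. In TR-AΦ at 4 weeks, BM-AΦ and TR-AΦ at 32 weeks the called genes numbered 1 (0.0079%), 2 (0.0158%) and 0 of 12665, with 372, 259 and 396 at an unadjusted p under 0.05, among them Clec9a in TR-AΦ at 4 weeks and Fscn1 in BM-AΦ. In the monocytes of 4 weeks and the CD45.1 and CD45.2 ones of 32 weeks they numbered 1 (0.00778%), 0 and 0 of 12856, with 272, 609 and 547 at an unadjusted p under 0.05 and none of the 7 tested members among them. Clec9a and Xcr1 were below the filter in monocytes. In the fit with no filter their unadjusted p was 0.855 and 0.0936 at 4 weeks and 0.052 and 0.159 in CD45.1 monocytes (limma). In CD45.2 monocytes it was 0.0319 and 0.039, both with PM2.5 higher and an adjusted p of 0.716 (limma). A comparison of 3 with 3 libraries cannot give an exact permutation p below 0.1.

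In 32-week monocytes the means nevertheless leaned one way. In both populations 8 of the 9 genes had a higher mean log2 value with PM2.5 and Flt3 a lower one, with medians over the 9 of 0.78 and 0.98 (log2). Over all genes tested 53.5% and 52.9% had a fold change above 0, with medians of 0.03 and 0.02. In 4-week monocytes the mean of 1 of 9, Ccl17, was higher with PM2.5, where 46.7% of all genes were above 0, and the median was −0.26.

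The lean rested on part of the libraries. Ccl22 held 26.4, 7.53 and 7.82 FPKM in CD45.1 monocytes of FA and 21.7, 62.5 and 77.3 of PM2.5, a difference of 1.93 ± 1.30 (log2, SE; limma, adjusted p = 0.992). In CD45.2 monocytes it held 6.08, 19.1 and 7.28 for FA and 9.95, 46.2 and 51.7 for PM2.5, a difference of 1.51 ± 1.30 (limma, adjusted p = 1). In both origins the PM2.5 libraries numbered 1 and 2 were above all FA libraries and the one numbered 0 was not. Whether libraries of the same number came from the same mouse is not in the labels. The 2 origins may share mice, so their likeness is not separate support.

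Ccl17 followed the same libraries, at 43.7, 7.22 and 11.3 FPKM for FA and 10.6, 65.0 and 53.2 for PM2.5 in CD45.1 monocytes, and at 4.03, 17.4 and 4.27 and 10.3, 73.1 and 28.9 in CD45.2 monocytes. So did Fscn1 in CD45.1 monocytes, at 14.4, 2.46 and 2.71 for FA and 10.9, 27.5 and 23.6 for PM2.5, a difference of 1.8 ± 0.97 (limma, adjusted p = 0.946). Cd209a, given above, was likewise lowest in the PM2.5 library numbered 0 in both origins, with differences of 0.65 ± 0.85 and 0.98 ± 0.85.

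In CD45.2 monocytes 4 of the 9 genes, Clec9a, Xcr1, Fscn1 and Ccr7, had each PM2.5 library above each FA library (exact two-sided permutation test, p = 0.1 each), where 3.81% of all genes tested had such a gap. Ccr7 stood at 2.28, 7.68 and 7.93 FPKM for FA and 11.6, 16.1 and 13.3 for PM2.5, a difference of 1.20 ± 0.82 (limma, adjusted p = 1). Clec9a stood at 0.281, 0.942 and 0.113 for FA and 2.37, 1.04 and 1.03 for PM2.5, and Xcr1 at 0.125, 0.182 and 0 against 0.488, 0.558 and 0.671. Both were below the filter and so not among the genes of that share. In CD45.1 monocytes none of the 9 had such a gap, where 6.49% of all genes did.

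Flt3 had lower means with PM2.5, within the spread of its libraries. It held 8.30, 21.4 and 14.0 FPKM for FA and 8.54, 11.1 and 9.63 for PM2.5 in CD45.1 monocytes, a difference of −0.45 ± 0.32 (limma, adjusted p = 0.992), and 7.89, 9.92 and 10.3 against 8.06, 8.23 and 8.34 in CD45.2 monocytes, a difference of −0.16 ± 0.32. The 2 highest Flt3 values, in FA libraries of CD45.1 monocytes, came with the lowest Ccl22, Fscn1 and Ccr7 values of that population. In AΦ the differences between exposures of the 9 genes ran from −0.59 for Ccl17 in 4-week TR-AΦ to 1.07 for Cd209a in the same cells, the latter from the library numbered 2. In 4-week TR-AΦ, BM-AΦ and 32-week TR-AΦ the means of 5, 5 and 7 of the 9 were higher with PM2.5, where 44.2%, 45.5% and 49.2% of all genes were above 0. Clec9a in 4-week TR-AΦ had each PM2.5 library above each FA library, where 2.31% of all genes did. No other member had such a gap in AΦ or in 4-week monocytes, where 2.78% of all genes in BM-AΦ, 3.23% in 32-week TR-AΦ and 3.54% in 4-week monocytes had one. The interaction of exposure and time called no member in TR-AΦ or in CD45.2 monocytes by limma (adjusted p = 1 for each gene tested), with 1 gene called in each and 380 and 483 at an unadjusted p under 0.05, none of them a tested member. Of the members below the filter, Xcr1 in CD45.2 monocytes had an unadjusted p of 0.0121 with no filter (limma, adjusted p = 0.901).

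**Figure D4:**
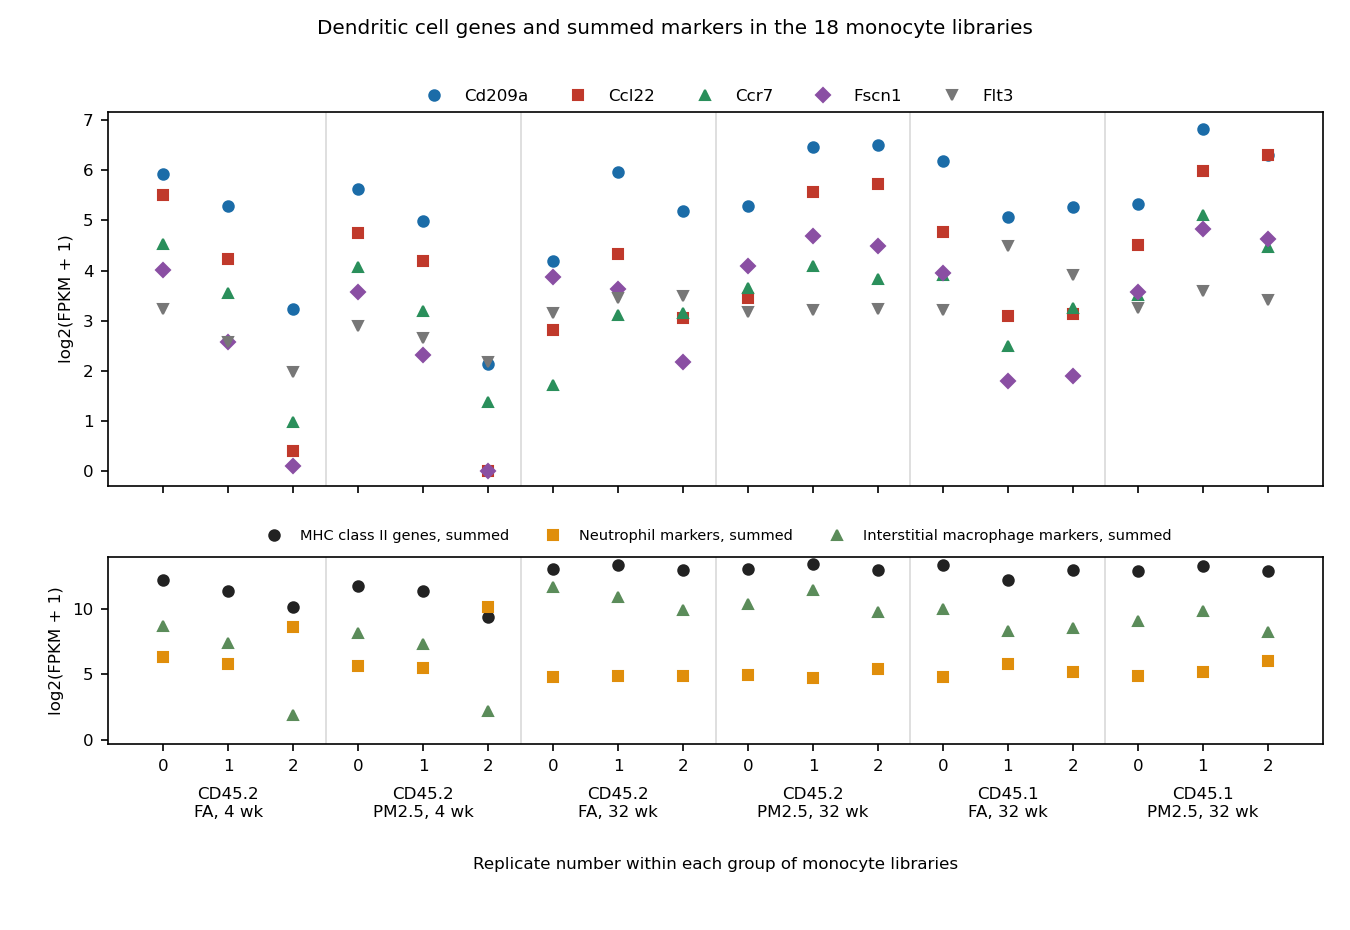
Upper panel, log2(FPKM + 1) of 5 genes in each of the 18 monocyte libraries, by replicate number within the 6 groups on the horizontal axis. Lower panel, log2(FPKM + 1) of the summed MHC class II genes, neutrophil markers and interstitial macrophage markers in the same libraries. Cd209a, Ccl22, Ccr7 and Fscn1 are high or low in the same libraries, and Flt3 runs from 2.96 to 21.4 FPKM. The 4-week libraries numbered 2 are low in all 5 genes, with Flt3 at 2.96 and 3.50 FPKM, and high in neutrophil markers.

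Within monocytes the genes split by how they varied from library to library. Over the 18 monocyte libraries, which share their gate but differ in origin, time and exposure, Pearson's r of log2(FPKM + 1) was 0.95 for Cd209a with Ccl22, 0.92 for Ccl22 with Ccr7, 0.90 for Fscn1 with Ccl22 and 0.86 for Ccl17 with Ccl22. Flt3 had an r of −0.18 with Zbtb46 and −0.30 with Xcr1, and of 0.57 at most, with Cd209a. Among all genes tested the 3 most like Cd209a in monocytes were Ccl22, Ciita and H2-DMb2, and those most like Ccr7 were Ccl22, H2-DMb2 and Cd209a. Ciita, the master regulator of MHC class II genes, thus ran with the lectin at an r of 0.95, as did the peptide-loading gene H2-DMb2 at 0.94. Flt3 was most like Dock4, Cenpa and Ipo9, at 0.83, 0.82 and 0.82, and Zbtb46 most like Rbbp7 at 0.83. The 4-week libraries numbered 2 and the relative depth of each library enter these values, which describe the libraries and carry no test.

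Over all 36 libraries, which share the difference between the cell types, other genes came first. Flt3 was most like Tns3 at 0.96, Cd209a most like Gpr183 at 0.96, a receptor that positions DC and lymphocytes, Ccr7 most like H2-Ob at 0.90, Fscn1 most like Fgfr1 at 0.93 and Ccl17 most like Dcstamp at 0.86. Clec9a was most like Lgi4 at 0.78, the lowest first value of the 8 genes that passed the filter. With a pseudocount of 0.1 in place of 1, all 3 leading genes stayed for Cd209a and Ccr7 in monocytes and none for Flt3, Cd209a or Clec9a over all libraries.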

How the data were processed

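RNA of sorted lung cells was sequenced from SMART-Seq libraries. The authors trimmed reads with TrimGalore, aligned them to mm10 with STAR under GENCODE and computed FPKM per gene with Cufflinks. The deposited FPKM table covers 27562 genes and 36 libraries (sums of 1839577 to 3339020), its read depth is unknown, and Cuffdiff, which needs reads, was not used. Here limma 3.58.1 (R 4.3.3) was fitted to log2(FPKM + 1) with 1 mean per group and a variance trend, keeping every gene whose mean reached 1 FPKM: cell types and their interactions in all 36 libraries, other comparisons in the 18 libraries of a cell type. Adjusted p-values are Benjamini-Hochberg over all genes tested, with a threshold of 0.05. Genes below the filter were given exact two-sided permutation tests, and those of a fit with no filter. On simulated data with 200 changed genes, 171 were recovered with 6 false calls for cell type at 4 weeks, and 157 with 9 false calls for exposure in CD45.1 monocytes. At a log2 change of 1 the recovered shares were 76% and 32%. The changed genes were drawn from well-expressed genes, above the level of low ones such as Clec9a and Zbtb46, so recovery of low genes was not measured. Relative depth came from the steps of low values, and 35 of 36 libraries lay within 0.25 (log2) of a second estimate. The highest correlation between 2 libraries was 0.897, so all were counted as separate libraries. The 9 genes, the gene lists and the tests were chosen with earlier results of these data known. Named genes are the 9, and of the other lists those with the largest called differences. Alternatives were a pseudocount of 0.1, no filter, quantile normalization, FPKM rescaled to the median sum, a fit of the compared libraries alone, a replicate block, leaving out each library, and, chosen after seeing the data, leaving out the 4-week libraries numbered 2.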

Additional observations from a re-analysis of the deposited data

How the results depend on the processing

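Depth is known relative to other libraries only, so low values of Xcr1, Clec9a, Flt3 and Zbtb46 in AΦ rest on few reads and small differences there were not detectable. The p-values measure the spread between 3 replicates a group.

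The number of the 9 genes called moved under these settings. Without the 4-week libraries numbered 2, monocytes against AΦ at 4 weeks gave 8 in place of 5. CD45.1 monocytes against BM-AΦ gave 5 in place of 3 with quantile normalization and in the compared libraries alone. Time in CD45.2 monocytes gave 1 (Flt3) in place of 0 with a pseudocount of 0.1, quantile normalization or rescaled FPKM, and stayed at 0 without the 4-week libraries numbered 2, where Flt3 moved from 0.70 (adjusted p by limma 0.0511) to 0.44 (0.251). BM-AΦ against TR-AΦ gave 1 in place of 2 with a pseudocount of 0.1, and the interaction of cell type and origin 1 in place of 0. The fold changes that changed sign had not passed, Ccl22 at 4 weeks from 0.41 to −0.23 with a pseudocount of 0.1, and Ccl17 in CD45.1 cells from 0.09 to −0.28 with rescaled FPKM. The cause was not tested. Under these settings 100 counts stayed within 1.5 times the main count and 10 did not, and 259 fold changes kept their direction and side of the threshold, with 14 newly past it and 4 no longer past it.

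Replicate numbers were not taken to pair the libraries, since the labels do not say that they do and not every same-numbered pair correlated above 0.1. Deviations from the group means correlated at a median of 0.0372 over 42 pairs with the same number in other populations, with 2 over 0.1, at 0.071 over 18 pairs across exposures, with 4 over 0.1, and at 0.0383 over 12 pairs across times, with 2 over 0.1. Pairs with other numbers had medians of −0.021, −0.0283 and −0.0236, below those of same-numbered pairs in all 3 kinds of pair. The deviations of the 3 libraries of a group add up to 0, which ties both sets of values together. The medians of pairs with other numbers are therefore no separate baseline. With a block built from the replicate number, BM-AΦ against TR-AΦ gave 0 of the 9 genes, with 22 genes called in place of 40. Adjusted p by limma was 0.0864 for Fscn1 and 0.0562 for Ccr7, at SEs below those of the main fit. Time in CD45.2 monocytes gave 1 with the block.

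Leaving out 1 library gave 3 to 6 of the 9 genes for CD45.1 cells, with 6 without CD45.1 monocytes of PM2.5 number 0 and 5 without those of FA number 1 or without BM-AΦ of FA number 0. It gave 0 to 2 for time in CD45.2 monocytes, with 2 without the 4-week FA library number 0 and 1 without the PM2.5 library number 0. It gave 1 to 3 for BM-AΦ against TR-AΦ, with 3 without BM-AΦ of FA number 1, and 0 to 1 for cell type and time, with 1 without the 4-week monocyte libraries number 0 of FA or PM2.5 or the 32-week CD45.2 FA library number 2. The fold change of Ccl22 at 4 weeks ranged from −0.12 to 1.16 and that of Ccl17 in CD45.1 cells from −0.33 to 0.49.

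Over all genes, rescaled FPKM moved the median fold change of monocytes against AΦ to −0.21, −0.36 and −0.14 (log2) and the calls to 2127 higher and 4247 lower at 4 weeks, 1865 and 5480 in CD45.1 cells and 2394 and 3811 in CD45.2 cells, from 3397 and 3011, 3166 and 3601, and 3150 and 3141. It also moved time in CD45.2 monocytes to 1111 higher and 520 lower (from 908 and 1006), time in TR-AΦ to 68 and 278 (from 324 and 424) and cell type and time to 604 and 149 (from 579 and 470). The compared libraries alone gave 69 genes for BM-AΦ against TR-AΦ, 52 for monocyte origin, 395 for time in TR-AΦ, and 10 and 11 for PM2.5 in BM-AΦ and in CD45.1 monocytes. With no filter 62 and 149 genes were called for origin in AΦ and monocytes. The block gave 1308 for time in TR-AΦ, 146 for monocyte origin, 1808 for cell type and time and 236 for cell type and origin, and leaving out the 4-week libraries numbered 2 gave 683 for cell type and time.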
